A study of Mus musculus with 4 samples.

Results

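The Hox genes encode homeobox transcription factors and lie in 4 clusters, Hoxa to Hoxd, on separate chromosomes. The members described here were chosen by name, as every gene whose symbol was Hox followed by a cluster letter a to d and a paralogue number, which gave 39 of the 21832 genes in the tables. The Hoxa cluster held 11 of them, Hoxb 10, Hoxc 9 and Hoxd 9. All 39 had the status OK in each of the 4 libraries, so none was lost to a failed estimate.

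Within a cluster the genes are numbered in order along the chromosome, and genes with the same number in different clusters are paralogues that descend from one ancestral gene. During development, low-numbered genes at the 3′ end of a cluster are switched on early and towards the head, and high-numbered genes at the 5′ end late and towards the tail. Hox genes are kept off in the forebrain, from which the retina forms, and silent Hox clusters are textbook targets of Polycomb repression: Ezh2 is the enzyme of the Polycomb complex PRC2 that methylates lysine 27 of histone H3.

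The libraries were made from poly(A) RNA of retina from mice of the slc:ICR background at postnatal day 12. Retinal cells had been sorted by Cd73, an ectoenzyme of rods and rod precursors that the Nt5e gene encodes, into a Cd73-negative fraction (Cd73N) and a Cd73-positive fraction (Cd73P). Each fraction came from wild-type retina, which the methods give as normal littermates, and from retina labelled Ezh2-cKO, in which a floxed Ezh2 was crossed with DKK3-Cre, a driver active in retinal progenitors from early embryonic life. There was 1 library for each of these 4 groups, so the differences have no replicate check and no p-value is given. Whether the retinas of several animals were pooled for a library is not given in the sources used here, and levels of Hox RNA per cell cannot be told apart from the share of cells that carried it.

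Levels are FPKM, fragments scaled to the length of the exons and to how much was mapped in each library, which allow comparison between genes per length. The sort could be read from Nt5e, which was 0.844 FPKM in wild-type Cd73N and 0.609 FPKM in its labelled Ezh2-cKO counterpart, against 125 FPKM and 123 FPKM for the same genotypes in Cd73P. Ezh2 itself stood at 14.1 FPKM in wild-type Cd73N and 15.9 FPKM in the Cd73N library labelled Ezh2-cKO, which goes against the label, and at 5.38 and 3.45 FPKM in Cd73P. A value for the whole gene does not separate the floxed exons from the others, so the genotype was taken from the labels alone. FPKM of at least 1 was reached by 10354 to 12745 genes per library. In 60.4% to 61.5% of the low rows examined, the deposited bounds were whole multiples of a common step, taken as 1 fragment. The most frequent ratio of these steps gave depths of 1.20 (Cd73N, labelled Ezh2-cKO), 0.991 (Cd73P wild type) and 1.03 (Cd73P, labelled Ezh2-cKO) relative to wild-type Cd73N. That ratio was held by 43.5%, 42.0% and 42.8% of the shared rows, in the same order. Total read numbers were not part of the tables, so the absolute depth is unknown.

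The finding turns on the 3′ end of the Hoxc cluster, which is described first. In the mm9 build the cluster ran on the plus strand of chromosome 15 from 102751562 to 102867283, with Hoxc13 at its 5′ end and Hoxc4 (102864826 to 102867283) and Hoxc5 (102844439 to 102847860) at its 3′ end. Both proteins bind DNA through the homeodomain, encoded by the homeobox. Reads of 36 bases could be credited to the wrong paralogue if the genes were alike. Over whole annotated transcripts, Hoxc4, Hoxc5 and Hoxc6 shared no run of 36 bases with the transcripts of any other protein-coding gene. That held for 23 of the 39 Hox genes, and the highest shared portion was 43.1% for Hoxd4, whose row overlaps Hoxd3.

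The 250 bases before the start site of Hoxc4 and Hoxc5, and of Hoxc13 at the other end, are shown to let the start regions of the highest genes be read beside that of a gene listed at 0 in both Cd73N libraries. Each window ends at the outermost start of a GENCODE transcript within 1 kb before the row, which for Hoxc5 and Hoxc13 lies upstream of the deposited row start given above. Capitals mark CG dinucleotides, the sites of DNA methylation. All are from mm9, plus strand, 5′ to 3′, at chr15:102864576-102864825 (Hoxc4), chr15:102843996-102844245 (Hoxc5) and chr15:102751284-102751533 (Hoxc13).
Hoxc4 upstream: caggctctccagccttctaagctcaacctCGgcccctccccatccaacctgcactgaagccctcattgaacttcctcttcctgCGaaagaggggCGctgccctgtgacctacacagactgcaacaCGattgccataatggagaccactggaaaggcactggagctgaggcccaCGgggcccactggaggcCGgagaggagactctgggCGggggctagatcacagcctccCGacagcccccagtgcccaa
Hoxc5 upstream: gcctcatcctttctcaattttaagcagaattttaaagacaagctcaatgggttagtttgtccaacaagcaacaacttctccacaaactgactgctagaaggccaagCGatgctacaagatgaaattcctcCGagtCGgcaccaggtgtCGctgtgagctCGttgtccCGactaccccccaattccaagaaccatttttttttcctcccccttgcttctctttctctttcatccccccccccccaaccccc
Hoxc13 upstream: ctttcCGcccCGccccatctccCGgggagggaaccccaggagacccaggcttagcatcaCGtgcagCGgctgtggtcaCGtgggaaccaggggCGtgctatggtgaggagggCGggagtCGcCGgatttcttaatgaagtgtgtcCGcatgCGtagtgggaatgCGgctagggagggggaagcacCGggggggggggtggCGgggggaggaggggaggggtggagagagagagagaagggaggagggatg
The window held 8 CG for Hoxc4, 6 for Hoxc5 and 15 for Hoxc13. Over 38 Hox windows that could be placed the median was 12, against 9 over 20622 windows of the same length for all genes. At least 10 CG stood in 57.9% of the Hox windows and in 49.9% of all windows. The motif TGATNNAT, bound by Hox proteins together with their Pbx partners, was searched on both strands and was found in 6 of the 38 Hox windows (15.8%) and in 6.71% of all windows. It was in none of the 3 windows shown.

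In wild-type retina the Hox genes were at or near 0 in both fractions. No member reached 0.1 FPKM in wild-type Cd73N or wild-type Cd73P, whereas 56.0% and 48.1% of all genes stood at 1 FPKM or more. The highest wild-type values were 0.0337 FPKM for Hoxc12 in Cd73N and 0.0197 FPKM for Hoxa13 in Cd73P. A value above 0 was listed for 6 members in wild-type Cd73N and 7 in wild-type Cd73P, and none of these had a deposited lower bound above 0. Between the wild-type fractions no member differed by 1.5-fold on the log2(FPKM + 1) scale, the study's fold threshold, while 9.07% of all genes were higher and 27.9% lower in Cd73P. With every wild-type Hox value under 0.1 FPKM, no member could have passed that threshold on this scale.

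In the Cd73N library labelled Ezh2-cKO, RNA of Hoxc and Hoxb genes was present. A value above 0 was listed for 18 of the 39 members, 7 stood at 0.1 FPKM or more, and Hoxc4 and Hoxc5 exceeded 1 FPKM. The lower bound was above 0 for 9 members, 5 in Hoxc and 4 in Hoxb. The summed level of the 39 genes was 0.0646 ± 0.026 FPKM in wild-type Cd73N and 4.20 ± 0.23 FPKM in the library labelled Ezh2-cKO. In Cd73P it was 0.0649 ± 0.024 FPKM in wild type and 0.127 ± 0.032 FPKM in the library labelled Ezh2-cKO. The errors here and below, named counting standard errors (SE), come from the width of the deposited bounds within 1 library, taken as 4 SE. They can be wider than counting alone would give, as for Hoxc4, and hold no spread between animals. A value of 0 with bounds of 0 adds no error to them, although a count of 0 leaves room for a low level.

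**Figure D1:**
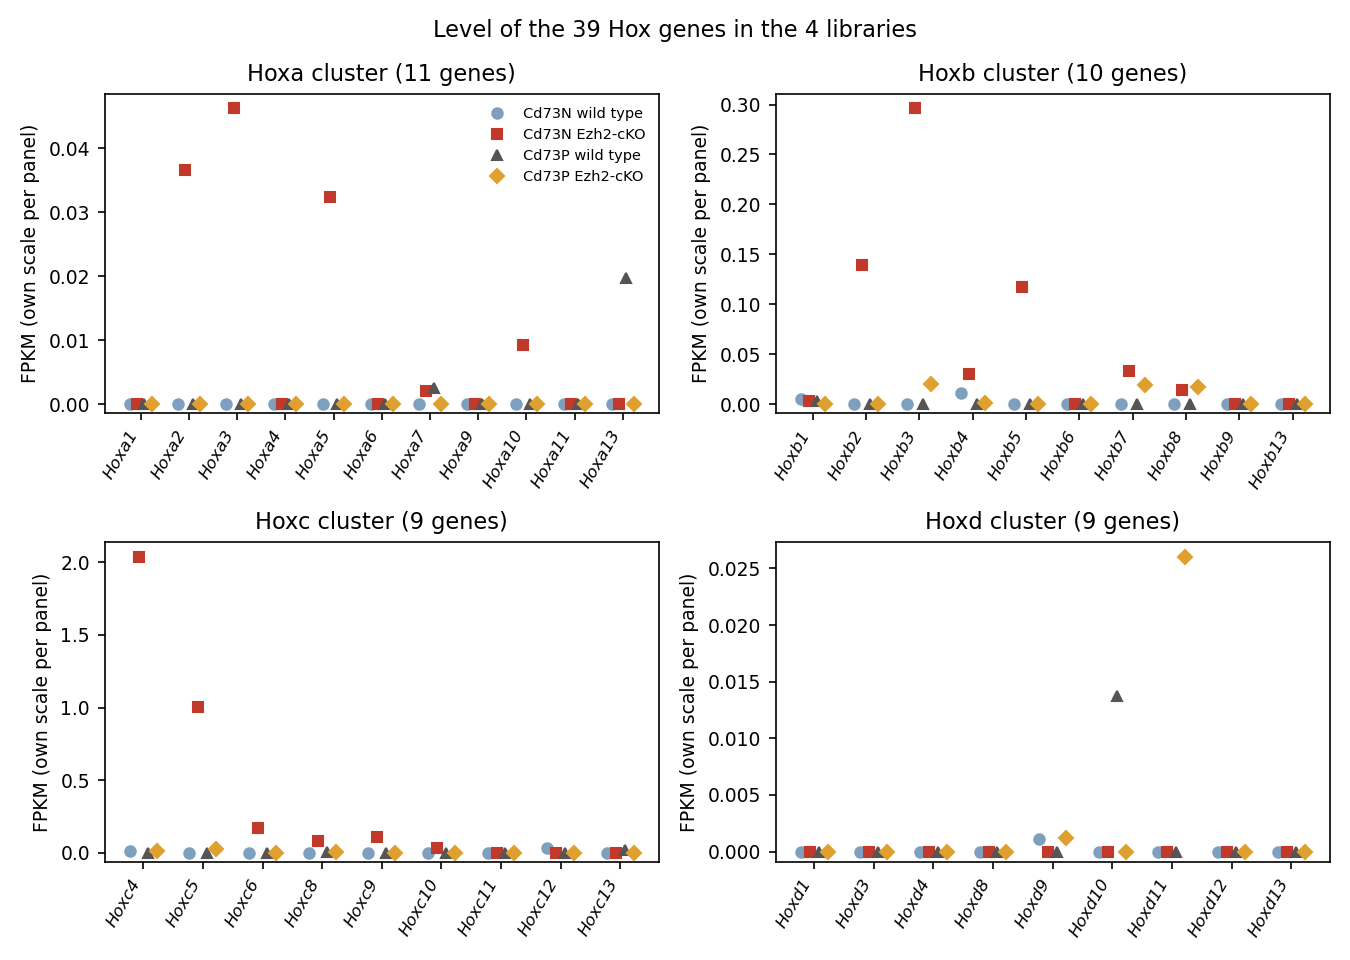
FPKM (y axis, linear, with a scale of its own in each panel) of each Hox gene (x axis, in paralogue order) in the 4 libraries, 1 point per library. The red squares of the Cd73N library labelled Ezh2-cKO stand above the other libraries at Hoxc4 (2.04 FPKM), Hoxc5 (1.01 FPKM) and Hoxb3 (0.296 FPKM), and stay at 0 across the Hoxd cluster.

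Hoxc4, a gene of the neck and anterior trunk, had the highest level of any member. It stood at 0.0121 FPKM in wild-type Cd73N, 2.04 FPKM in Cd73N labelled Ezh2-cKO, 0 in wild-type Cd73P and 0.0118 FPKM in Cd73P labelled Ezh2-cKO. One library was thus high and the other 3 were at or near 0. From the step of 1 fragment, which was worth 0.0109 FPKM in wild-type Cd73N and 0.00910 FPKM in its labelled Ezh2-cKO counterpart, these levels came from about 1.11, 224, 0 and 1.11 fragments. The bounds in the high library, 1.62 and 2.38 FPKM, were 178 and 261 fragments. The difference between the Cd73N libraries was 1.59 (SE 0.090) on the log2(FPKM + 1) scale, and that between the Cd73P libraries was 0.017 (SE 0.011).

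Hoxc5 lies 20.4 kb from Hoxc4, counted between start sites. It was listed at 0 in wild-type Cd73N, 1.01 FPKM in Cd73N labelled Ezh2-cKO, 0 in wild-type Cd73P and 0.0250 FPKM in Cd73P labelled Ezh2-cKO. About 76.1 fragments lay behind the high value and about 1.62 behind the value in Cd73P labelled Ezh2-cKO. A count of 0 allows up to 3 fragments, or 0.0475 FPKM in wild-type Cd73N. The listed level in the Cd73N library labelled Ezh2-cKO was 21.2-fold that limit, and its lower bound was 0.807 FPKM. On the log2(FPKM + 1) scale the Cd73N difference was 1.01 (SE 0.071) and the Cd73P difference 0.036 (SE 0.016).

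The other Hoxc genes of the Cd73N library labelled Ezh2-cKO were lower. Hoxc6, a thoracic patterning gene, was listed at 0.169 FPKM there and at 0 in the other 3 libraries. Hoxc9, another gene of the thoracic region, stood at 0.107 FPKM there and at 0 in the other 3. Hoxc8 was listed in all 4 libraries, at 0.000767 FPKM in wild-type Cd73N, 0.0850 FPKM in Cd73N labelled Ezh2-cKO, 0.00489 FPKM in wild-type Cd73P and 0.00348 FPKM in Cd73P labelled Ezh2-cKO. The 3 lowest of these Hoxc8 values came to less than 1 fragment each, against about 11.2 fragments in the fourth library. Hoxc6 rested on about 14.9 fragments. Its listed level was 4.15-fold the 3 fragments (0.0407 FPKM) that a count of 0 allows in wild-type Cd73N, and its lower bound was 0.0794 FPKM. Hoxc10 was listed at 0.0317 FPKM with a lower bound of 0, and Hoxc11, Hoxc12 and Hoxc13 were at 0 in this library. Hoxc12 was listed in wild-type Cd73N alone and Hoxc13 in wild-type Cd73P alone, at 0.0195 FPKM.

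In the Hoxb cluster, Hoxb3 was the highest member, with 0 in wild-type Cd73N, 0.296 FPKM in Cd73N labelled Ezh2-cKO, 0 in wild-type Cd73P and 0.0203 FPKM in Cd73P labelled Ezh2-cKO. Hoxb2, which with Hoxb3 patterns the hindbrain, was listed at 0.139 FPKM in Cd73N labelled Ezh2-cKO and at 0 in the other 3 libraries. Hoxb5 stood at 0.117 FPKM in that library and at 0 in the other 3. About 12.6 and 12.3 fragments lay behind Hoxb2 and Hoxb5. Their listed levels were 3.50-fold and 3.43-fold what 3 fragments in wild-type Cd73N would give. Those limits were 0.0398 and 0.0342 FPKM, and the lower bounds of Hoxb2 and Hoxb5 were 0.0665 and 0.0571 FPKM. Hoxb4 was low in both Cd73N libraries, at 0.0111 FPKM in wild type and 0.0306 FPKM in the library labelled Ezh2-cKO, or about 1.31 and 4.34 fragments, and the bounds of these values overlapped. The differences between the Cd73N libraries on the log2(FPKM + 1) scale were 0.37 (SE 0.047) for Hoxb3, 0.19 (SE 0.046) for Hoxb2 and 0.16 (SE 0.040) for Hoxb5, each over 2 counting SE and each under the 1.5-fold threshold. Wild-type values of 0 entered these SE with no error of their own. Among the other members, Hoxb7 stood at 0.0338 FPKM and Hoxb8 at 0.0148 FPKM in this library, Hoxb1 at 0.00321 FPKM, and Hoxb6, Hoxb9 and Hoxb13 at 0.

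The Hoxa genes were lower again. In Cd73N labelled Ezh2-cKO, Hoxa3 stood at 0.0463 FPKM, Hoxa2 at 0.0366 FPKM, Hoxa5 at 0.0323 FPKM, Hoxa10 at 0.00922 FPKM and Hoxa7 at 0.00206 FPKM, each with a lower bound of 0. The other 6 Hoxa genes were at 0 there, and all 11 were at 0 in wild-type Cd73N and in Cd73P labelled Ezh2-cKO. In wild-type Cd73P, Hoxa7 and Hoxa13 were listed, at 0.00249 and 0.0197 FPKM. All 9 Hoxd genes were at 0 in Cd73N labelled Ezh2-cKO. Hoxd9 was listed at 0.00114 FPKM in wild-type Cd73N and 0.00123 FPKM in Cd73P labelled Ezh2-cKO, Hoxd10 at 0.0137 FPKM in wild-type Cd73P, and Hoxd11 at 0.0260 FPKM in Cd73P labelled Ezh2-cKO.

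The order of levels in Cd73N labelled Ezh2-cKO was therefore Hoxc4, Hoxc5, Hoxb3, Hoxc6, Hoxb2, Hoxb5, Hoxc9 and Hoxc8. The bounds of Hoxc4 (1.62 to 2.38 FPKM), of Hoxc5 (0.807 to 1.20 FPKM) and of Hoxb3 (0.212 to 0.381 FPKM) did not overlap. Those of Hoxc6 (0.0794 to 0.249 FPKM) overlapped those of Hoxb3, and from Hoxc6 to Hoxc8 (0.0381 to 0.130 FPKM) each gene overlapped the next, so their order is within counting error.

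Counted against all genes, the Cd73N contrast had 2 members, Hoxc4 and Hoxc5, higher by 1.5-fold in the library labelled Ezh2-cKO and none lower, or 5.13% of the 39 against 7.18% of 21706 genes higher and 1.71% lower. The share of members past the threshold was thus no larger than the background. The median difference was 0 over the Hox genes and 0 over all genes, and 17 members were higher, 3 lower and 19 equal, against 45.4%, 39.5% and 15.1% of all genes. Since log2(FPKM + 1) compresses low levels, counts were also made, after values were seen, among genes that were close to 0 in wild-type Cd73N. Of genes under 0.1 FPKM there, 1 FPKM or more was reached in the library labelled Ezh2-cKO by 2 of 39 Hox genes (5.13%) and by 25 of 6655 genes in all (0.376%). Hoxc5 was barely over that cutoff, at 1.01 FPKM with bounds of 0.807 to 1.20 FPKM. A level of 0.1 FPKM or more was reached by 7 of 39 Hox genes (17.9%) against 11.6% of the same 6655 genes. Of genes with a lower bound of 0 in wild-type Cd73N, the lower bound was above 0 in the library labelled Ezh2-cKO for 9 of 39 Hox genes (23.1%) against 14.8% of all such genes. In the opposite direction, no Hox gene out of 30 had a lower bound above 0 in wild type alone, against 2.73% of all such genes. Of 32 Hox genes under 0.1 FPKM in the library labelled Ezh2-cKO, none reached 0.1 or 1 FPKM in wild type, against 2.84% and 0.116% of all genes under 0.1 FPKM there.

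In Cd73P no member passed 1.5-fold between the genotypes, where 2.26% of all genes were higher and 2.39% lower. With every member under 0.1 FPKM in both Cd73P libraries, no call was possible on the log2(FPKM + 1) scale. None of the 39 had a lower bound above 0 in either Cd73P library, while of all genes with a lower bound of 0 in one Cd73P library, 8.11% passed 0 in the library labelled Ezh2-cKO and 6.84% in wild type. No member reached 0.1 FPKM, whereas of all genes under 0.1 FPKM in wild-type Cd73P, 5.95% reached 0.1 FPKM and 0.125% reached 1 FPKM in the library labelled Ezh2-cKO. In the opposite direction these shares were 6.84% and 0.111%. The median difference was 0 over the Hox genes and over all genes, with 9 members higher, 6 lower and 24 equal, against 36%, 44.8% and 19.2% of all genes. A difference of the size seen for Hoxc4 in Cd73N would have put Hoxc4 far over its deposited upper bound in Cd73P labelled Ezh2-cKO, 0.0318 FPKM. Whether the genotype difference itself differed between the fractions could not be tested with 1 library per group.

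Set against each other, the fractions labelled Ezh2-cKO differed by 1.5-fold at the same 2 members. Hoxc4 was lower in Cd73P by a log2(FPKM + 1) difference of -1.59 (SE 0.090) and Hoxc5 by -0.97 (SE 0.073), and no member was higher. In all, 29.1% of genes were lower and 8.4% higher in Cd73P than in Cd73N in this contrast. It shares the Cd73N library labelled Ezh2-cKO with the genotype contrast, so the 2 calls are not separate evidence.

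By locus, the Hoxc cluster carried most of the signal. Its summed level was 0.0466 ± 0.022 FPKM in wild-type Cd73N, 3.44 ± 0.22 FPKM in Cd73N labelled Ezh2-cKO, 0.0244 ± 0.012 FPKM in wild-type Cd73P and 0.0403 ± 0.016 FPKM in Cd73P labelled Ezh2-cKO. The Hoxb sum was 0.0168 ± 0.012, 0.635 ± 0.068, 0.00454 ± 0.0099 and 0.0599 ± 0.022 FPKM in the same order. The Hoxa sum was 0.127 ± 0.034 FPKM in Cd73N labelled Ezh2-cKO, 0.0222 ± 0.016 FPKM in wild-type Cd73P and 0 in the other libraries. Hoxd genes summed to 0 in Cd73N labelled Ezh2-cKO and to between 0.00114 and 0.0273 FPKM in the other libraries. In Cd73N labelled Ezh2-cKO the Hoxc cluster thus held 81.9% of the summed Hox level, and Hoxc4 and Hoxc5 together held 72.5%. All Hox genes together made up 0.00113% of the FPKM sum over all genes in that library. The members above 0 there numbered 6 of 9 in Hoxc, 7 of 10 in Hoxb, 5 of 11 in Hoxa and 0 of 9 in Hoxd.

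**Figure D2:**
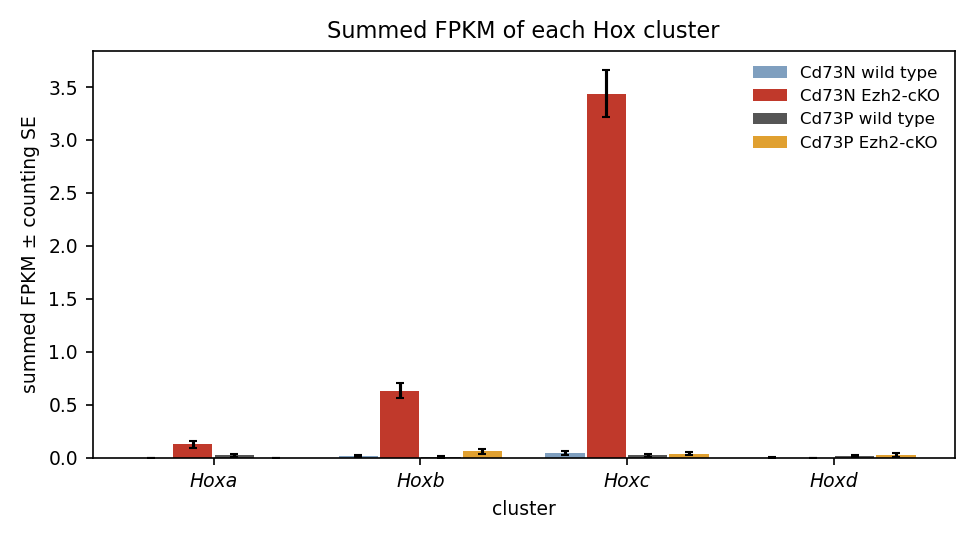
Summed FPKM of the members of each Hox cluster (y axis, linear from 0) in each library, 1 bar per library, with the counting SE of the sum as error bar and no replicates. The Hoxc bar of Cd73N labelled Ezh2-cKO reaches 3.44 FPKM and the Hoxb bar 0.635 FPKM, while no bar of the other 3 libraries passes 0.0599 FPKM.

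By paralogue group, levels in Cd73N labelled Ezh2-cKO were highest in groups 4 and 5. The summed level was 0.00321 FPKM over the group 1 genes, 0.176 FPKM over group 2, 0.342 FPKM over group 3, 2.07 FPKM over group 4 and 1.16 FPKM over group 5. It was 0.169 FPKM over group 6, 0.0359 FPKM over group 7, 0.0998 FPKM over group 8, 0.107 FPKM over group 9 and 0.0409 FPKM over group 10. Groups 11, 12 and 13, the posterior genes, were at 0. In the other 3 libraries no group sum passed 0.0392 FPKM. Groups 4 and 5 owed their sums to Hoxc4 and Hoxc5, since Hoxa4, Hoxd4 and Hoxa5 stood at 0, 0 and 0.0323 FPKM and Hoxb4 and Hoxb5 at 0.0306 and 0.117 FPKM. Genes of one paralogue group in different clusters therefore had unlike levels in this library.

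Within the Hoxc cluster the level in Cd73N labelled Ezh2-cKO fell along the chromosome from Hoxc4. Levels were 2.04 FPKM at Hoxc4, 1.01 FPKM at Hoxc5 (20.4 kb away), 0.169 FPKM at Hoxc6 (24.8 kb) and 0.0850 FPKM at Hoxc8 (43.9 kb). They were 0.107 FPKM at Hoxc9 (57.4 kb), 0.0317 FPKM at Hoxc10 (67.6 kb) and 0 from Hoxc11 (79.9 kb) to Hoxc13 (113 kb). Hoxc9 was thus the only member out of that order, and its bounds overlapped those of Hoxc8. Spearman's rho between level and distance was -0.97 over the 9 genes. It was -0.58 over the 10 Hoxb genes, where the highest gene, Hoxb3, lay 42.6 kb from Hoxb1 and not at the 3′ end, and -0.20 over the 11 Hoxa genes. These are descriptions over genes of 1 library that share its depth, and neighbouring genes are not independent.

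**Figure D3:**
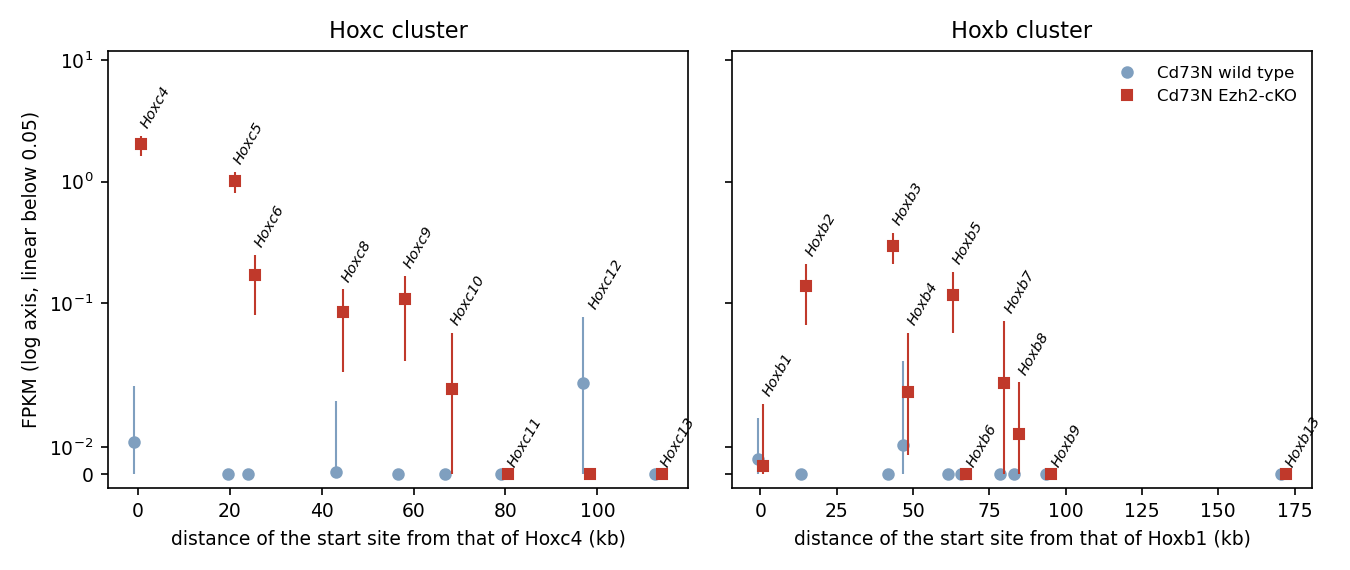
FPKM (y axis, logarithmic above 0.05 and linear below) of each Hoxc and Hoxb gene against the distance of its start site from that of the lowest-numbered gene of the cluster (x axis, kb) in the 2 Cd73N libraries. Points are single libraries and vertical lines the deposited lower and upper bounds, and the Hoxc points of the library labelled Ezh2-cKO step down from 2.04 FPKM at Hoxc4 to 0 at Hoxc11, with Hoxc9 above Hoxc8 as the exception. The libraries are drawn slightly apart along the x axis.

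Transcripts that overlap the Hox rows can limit how far a value belongs to 1 gene, as the library kit did not keep the strand. An annotated noncoding transcript, Gm20398 (chromosome 15, 102797874 to 102846107, plus strand), overlaps the Hoxc5, Hoxc6, Hoxc8, Hoxc9 and Hoxc10 genes on the same strand and does not reach Hoxc4. Hoxb3os runs opposite to Hoxb2 and Hoxb3, and 0610040B09Rik runs opposite to Hoxb5, so reads from any exon bases these pairs share could not be told apart. Overlaps were taken over whole gene spans, introns included, and shared exons were not examined. Hoxc4 had no such overlap.

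Few of the genes around the clusters passed the threshold. Inside the 4 clusters stood 10 rows that were no Hox gene, 6 of them small RNAs, and 9 of the 10 were at 0 in all libraries; the remaining one, 2700086A05Rik, was listed at 0.0344 FPKM in wild-type Cd73P alone. Within 500 kb outside the clusters, 4 of 53 compared rows were higher and 1 lower by 1.5-fold in the Cd73N contrast, and 0 higher and 5 lower of 51 in the Cd73P contrast, near the background shares given above except for the lower rows in Cd73P, whose share was above it. On the Hoxc4 side of its cluster the nearest gene was Smug1, a uracil-DNA glycosylase 116 kb away, with 35.5 FPKM in wild-type Cd73N, 32.7 FPKM in Cd73N labelled Ezh2-cKO, 9.14 FPKM in wild-type Cd73P and 4.64 FPKM in Cd73P labelled Ezh2-cKO. Its log2(FPKM + 1) difference was -0.11 in Cd73N and -0.85 in Cd73P, so that it was lower past the threshold in the fraction where the Hoxc genes were near 0. On the Hoxc13 side the nearest, Calcoco1 at 199 kb, stood at 13.0, 15.4, 22.7 and 17.1 FPKM in the same order, with differences of 0.23 and -0.39.

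The nearest gene before the Hoxa cluster, Skap2, an adaptor of immune cells 143 kb away, stood at 1.20, 2.74, 0.455 and 0.630 FPKM and was higher by 0.76 (SE 0.14) in Cd73N. Those on the other side of Hoxa and on both sides of Hoxb (5730457N03Rik, Ttll6 and Gm11529) were at 0 in all libraries. Next to Hoxd, Evx2, a homeobox gene of the same ancestral cluster, was listed at 0.0172 FPKM in Cd73P labelled Ezh2-cKO and at 0 elsewhere, and Mtx2 stood at 46.4, 39.5, 20.9 and 21.3 FPKM. Evx1, the corresponding gene beside Hoxa, was at 0 in all libraries. The remaining rows past the threshold with at least 1 FPKM were Npff (1.14 in Cd73N, -0.64 in Cd73P), Copz2 (0.64 in Cd73N), Gm5643 (-0.74 and -0.60), Gngt2 (-1.57 in Cd73P) and Pde1b (-0.65 in Cd73P). These values are log2(FPKM + 1) differences, labelled Ezh2-cKO minus wild type.

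**Figure D4:**
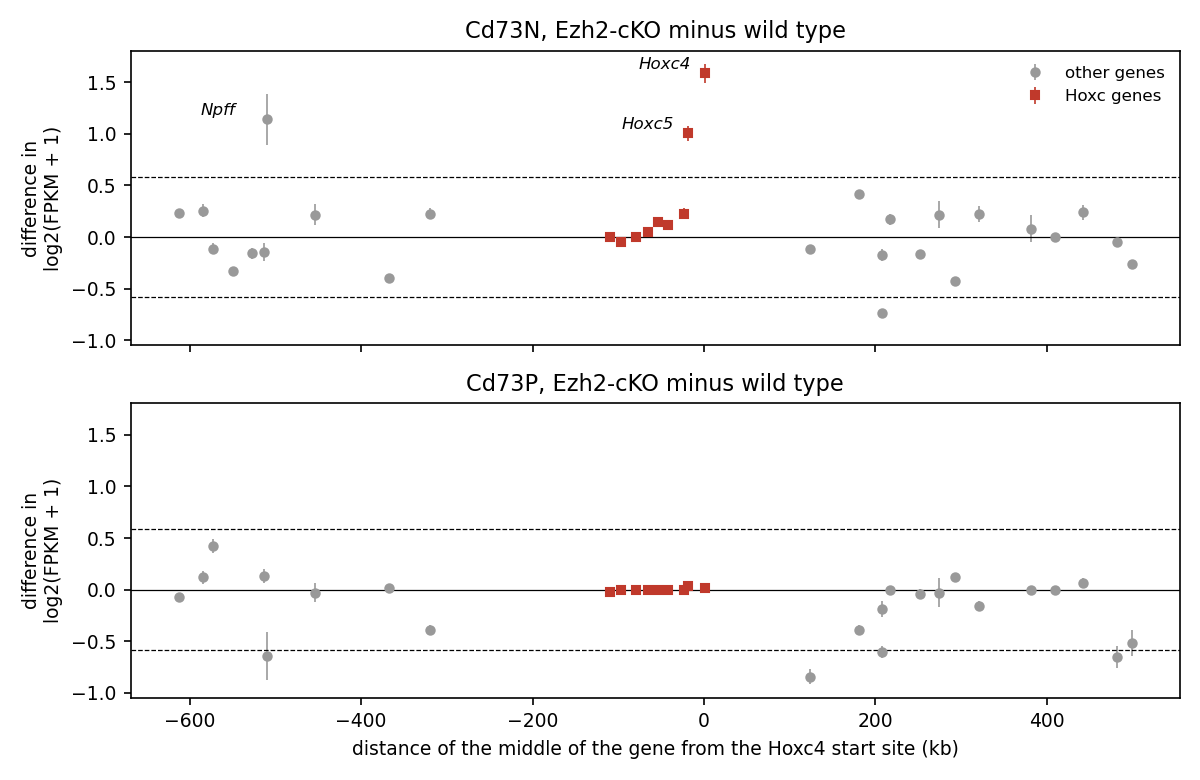
Difference in log2(FPKM + 1), labelled Ezh2-cKO minus wild type, of Hoxc genes (red squares) and of other genes within 500 kb of the cluster (grey circles) against the distance of the middle of the gene from the Hoxc4 start (x axis, kb), for Cd73N above and Cd73P below. Error bars are counting SE within libraries and dashed lines the 1.5-fold threshold; in Cd73N, Hoxc4 (1.59), Hoxc5 (1.01) and Npff (1.14) lie over the upper line, and in Cd73P no gene does.

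Cofactors of the Hox proteins were expressed in the retina with or without Hox RNA. The 8 genes of the Meis, Pbx and Pknox families reported here, TALE homeodomain partners of Hox proteins, stood at 1 FPKM or more in both Cd73N libraries, and 6 of them did in both Cd73P libraries. The highest in wild-type Cd73N was Meis3, at 22.0 FPKM there, 16.6 FPKM in Cd73N labelled Ezh2-cKO, 3.11 FPKM in wild-type Cd73P and 1.64 FPKM in Cd73P labelled Ezh2-cKO. In the Cd73N contrast 2 of the 8 were higher and none lower, namely Meis1 (4.64 to 7.48 FPKM, a log2(FPKM + 1) difference of 0.59) and Meis2 (21.5 to 33.2 FPKM, 0.60). In the Cd73P contrast 2 were lower and none higher, namely Meis2 (16.1 to 9.61 FPKM, -0.69) and Meis3 (3.11 to 1.64 FPKM, -0.64). The list's median difference was 0.076 in Cd73N and -0.094 in Cd73P. The ParaHox and Cdx genes, sisters and activators of the Hox clusters, were at or near 0: of Gsx1, Gsx2, Pdx1, Cdx1, Cdx2 and Cdx4 none passed 1.5-fold in either contrast, and the highest value was 0.196 FPKM, for Gsx1 in Cd73N labelled Ezh2-cKO. Levels this low could not pass 1.5-fold on the log2(FPKM + 1) scale.

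Of 20 Polycomb genes reported here, 1 was higher and none lower in the Cd73N contrast, and none higher and 3 lower in the Cd73P contrast. The gene higher in Cd73N was Cbx7, a reader of methylated histone H3, at 4.90 FPKM in wild type and 8.20 FPKM in the library labelled Ezh2-cKO (0.64). Those lower in Cd73P were Cbx2 (3.30 to 0.473 FPKM, -1.54), Cbx8 (18.8 to 11.2 FPKM, -0.70) and Pcgf2 (1.67 to 0.658 FPKM, -0.69), all subunits of the complex PRC1. Bmi1, also of PRC1, was the highest of the list in wild-type Cd73N, at 58.3 FPKM there and 55.9 FPKM in the library labelled Ezh2-cKO. The median difference of the list was 0.0040 in Cd73N and -0.14 in Cd73P. Of 10 trithorax and H3K27 demethylase genes found in the tables, none passed 1.5-fold in Cd73N and 1 was lower in Cd73P, the demethylase Kdm6b (10.2 to 5.51 FPKM, -0.78), and the highest in wild-type Cd73N was Ash2l at 31.7 FPKM.

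Other values moved together with the Hoxc difference in Cd73N. Markers of Müller glia summed to 921 FPKM in wild-type Cd73N and 5047 FPKM in the library labelled Ezh2-cKO, with 6 of 6 higher, and those of rods to 192 and 81.8 FPKM, with 6 of 6 lower. Of all genes, 7.18% were higher and 1.71% lower in this contrast. Rlbp1, Slc1a3, Apoe and Dkk3 of the Müller list are genes that the paper names among its most upregulated in Cd73N. That list came from these same libraries, so the rise of these markers is not separate evidence. The summed level of 8 endothelial markers was 57.4 and 126 FPKM, with Kdr (22.6 to 86.2 FPKM) and Flt1 (2.86 to 16.2 FPKM) higher and Esam (23.9 to 13.3 FPKM) lower. The other 5 did not pass the threshold: Cldn5 (3.08 and 5.09 FPKM, a log2(FPKM + 1) difference of 0.58, just under it), Pecam1 (0.928 and 1.07 FPKM), Cdh5 (0.388 and 0.477 FPKM), Tek (0.485 and 0.584 FPKM) and Tie1 (3.12 and 2.98 FPKM). Myeloid markers summed to 80.6 and 119 FPKM with 4 of 8 higher, mural markers to 256 and 290 FPKM, mesenchymal markers to 15.6 and 17.0 FPKM, and erythroid markers to 3207 and 2979 FPKM, with 1 of 6 erythroid markers lower. Lymphoid markers (1.37 and 0.865 FPKM) and pigment epithelium markers (2.34 and 2.19 FPKM) stood low, and no marker of these lists was at 0 in either Cd73N library. In the Cd73P libraries, with wild type first, the endothelial list summed to 9.74 and 8.61 FPKM, the myeloid list to 17.1 and 21.5 FPKM, the mural list to 7.62 and 4.02 FPKM, the mesenchymal list to 1.40 and 1.54 FPKM, and the Müller list to 83.4 and 196 FPKM. The libraries also differed in sex make-up, with Xist at 52.2 and 240 FPKM and Ddx3y at 11.6 and 0.698 FPKM in Cd73N, and at 47.0 and 95.6 FPKM and 10.4 and 0.463 FPKM in Cd73P. Eif2s3y, on the Y chromosome like Ddx3y, stood at 11.3 and 0 FPKM in Cd73N and at 13.1 and 0 FPKM in Cd73P. Kdm5d and Uty, also on the Y chromosome, were at 0 and 0.0180 FPKM in Cd73N labelled Ezh2-cKO. In Cd73P labelled Ezh2-cKO they were at 0 and 0.0335 FPKM. The wild-type libraries thus held RNA of both sexes, and those labelled Ezh2-cKO little from the Y chromosome. Sex cannot be told apart from genotype here, and the part of these cell types in the Hox values was not tested.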

How the data were processed

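Poly(A) RNA of 4 sorted retinal fractions was sequenced as single-end reads of 36 bases. Per the study's methods and the submitters' processing notes, the authors aligned reads to mm9 with TopHat2 2.0.8b (coverage search, at most 50 hits for a read) and then derived FPKM with Cufflinks 2.1.1 on RefSeq genes; base calling used bcl2fastq 1.8.4. The deposited tables give FPKM, lower and upper FPKM bounds, and a status for 23021 rows per library.

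Groups were taken from the sample titles. Rows sharing a symbol (235 symbols) were summed and 783 small RNA rows left out, which left 21832 genes. A gene was compared where its status was OK in both libraries. Differences were computed as log2(FPKM + 1), which understates changes of low genes, and called at 1.5-fold; with 1 library per group no test was run. The width of the bounds was taken as 4 counting SE. Bounds of low genes in 60.4% to 61.5% of the rows examined were whole multiples of a common step, taken as 1 fragment. This gave relative depths and the fragments behind 7 Hox genes. For Hoxb4, Hoxc4, Hoxc5 and Hoxc8, bounds above 0 in other libraries than the one that set the step were whole fragments (tolerance 0.02 fragment). Hoxb2, Hoxb5 and Hoxc6 had bounds above 0 only in the library that set the step, so their steps could not be checked. Hoxb3 and Hoxc9 could not be resolved. Limits for a count of 0 cover counting error only, and the deposited intervals hold no spread between animals.

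Coordinates were checked against GENCODE annotation of mm9: of 20625 starts, 9786 were equal with 1 added and 628 without, so 1 was added. Sequences were read from the mm9 genome. The calculation was tested on simulated data of well-expressed genes, which does not bear on levels as low as those of most Hox genes. A few items are not reported here. Named genes were all Hox members, those with the highest levels in full and the others by range; the nearest row on each side of each cluster, rows inside, and neighbours or genes of the cofactor and chromatin lists past 1.5-fold with at least 1 FPKM; and the highest gene of these lists. Evx1 and the counts among genes under 0.1 FPKM or with a lower bound of 0 were added after values were seen. Members and lists were chosen with earlier results of these data known. Alternatives were other pseudocounts (0.1 and 5), scalings, thresholds, filters and statuses. Python 3.11.15, pandas 2.3.3, numpy 2.4.6 and matplotlib 3.10.9 were used.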

Additional observations from a re-analysis of the deposited data

Results flagged for a closer look

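Among the cofactor and chromatin genes with at least 1 FPKM, those past 1.5-fold in one fraction and of opposite sign in the other are given here, as differences (labelled Ezh2-cKO minus wild type) on the log2(FPKM + 1) scale. Smaller differences of opposite sign, Ezh2 with 0.17 in Cd73N and -0.52 in Cd73P among them, did not pass that threshold in either fraction. Meis1 was 0.589 in Cd73N and -0.372 in Cd73P, and Meis2, a Hox cofactor like Meis1, was 0.603 and -0.692. Among Polycomb genes, Cbx7 was 0.642 in Cd73N and -0.351 in Cd73P, Cbx8 was 0.0381 and -0.705, and Pcgf2 was 0.0735 and -0.69. Each rests on 1 library per group, and the difference between fractions was not tested. No Hox gene met both conditions.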

How the results depend on the processing

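Under the alternatives 186 values were recomputed. Many were counts, which have no sign, and a change of pseudocount cannot turn the sign of a difference. Only scaling or leaving out the highest member could do so, and no difference past a threshold changed sign. The number of Hox genes higher in Cd73N labelled Ezh2-cKO, 2 as reported, was 8 with a pseudocount of 0.1, 0 with a pseudocount of 5, and 9 when counted by a lower bound above 0 in that library and at 0 in wild type, an alternative chosen after seeing the data. The number lower in Cd73P than in Cd73N labelled Ezh2-cKO, also 2, was 8 and 0 with these pseudocounts and 1 at a 2-fold threshold. Members at 1 FPKM or more in Cd73N labelled Ezh2-cKO, 2, became 7 at 0.1 FPKM and 9 by the lower bound. With pseudocounts of 0.1 and 5 the Hoxc4 difference in Cd73N was 4.25 and 0.49, and that of Hoxc5 3.47 and 0.26. Without its highest member, the difference of summed FPKM in Cd73N was 0.0803 for Hoxa, 0.322 for Hoxb, 1.37 for Hoxc and 2.11 for all clusters; in Cd73P it moved from -0.0222 to -0.00249 for Hoxa and changed sign from 0.0159 to -0.00912 for Hoxc and from 0.0135 to -0.0125 for Hoxd, the 3 new values all within 1 counting SE of 0. When libraries were scaled to equal FPKM sums (a shift of 0.15 on the log2 scale in Cd73N), the values were 0.688 for Hoxb, 3.77 for Hoxc and 4.60 for all clusters, and scaling by the median ratio gave 4.39 for all clusters. Another 103 values of these main results stayed within 1.5 times the count or 1 counting SE. Many of these were counts of 0 that stayed at 0. No paired analysis was possible because each group had 1 library and the labels carry no replicate numbers. Leaving out a replicate was not possible either. Depth limits members under 3 fragments, which cannot be told from 0.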
